A study of Homo sapiens with 24 samples.

Results

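HPDE cells that had been kept for 24 h with extracellular vesicles (EV) from PPCL-68 cells were compared with HPDE cells kept for 24 h with residual medium, the medium left over when the vesicles had been isolated. All genes with a mean of at least 1 FPKM over the 12 HPDE libraries were taken, which were 12223 of the 48162 genes in the deposited tables; FPKM scales the reads of a gene by its length and by the reads of the library. The cells were HPDE-H6c7, an immortalised line of human pancreatic duct epithelium that the labels call a normal pancreas cell. They were grown in serum-free keratinocyte medium in 24-well plates and received 1e10 vesicles per well, or the residual medium. The same fit held HPDE cells given fresh medium (untreated) and HPDE cells given 1e10 vesicles per well from PANC-1, a pancreatic carcinoma line. Each of these 4 groups had 3 libraries. The study also treated a second pancreas line, hTERT-HPNE, in the same way. All groups come from 1 immortalised line. The study calls its 3 libraries a group biological replicates without saying whether they were cultured on separate days, so p-values measure the spread between these libraries. The series text calls the sources of the vesicles pancreas cancer cells and describes PPCL-68 no further. The vesicle groups received vesicles, at 1 dose and 1 time, and the group they are compared with received residual medium. What the vesicles did and what the residual medium did cannot be told apart in this contrast.

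The 6 libraries compared held 29209142 to 38932792 reads assigned to genes and detected 21286 to 22698 genes. Of 10 duct epithelium markers, 8 were above the filter, among them KRT19, KRT7 and EPCAM, while CFTR and MUC1 were not. No marker of acinar, endocrine or endothelial cells passed the filter, and the highest value of any of these in the 12 libraries was 0.278 FPKM. Of 5 leukocyte markers 1 passed the filter, CD14, while PTPRC, the leukocyte surface phosphatase CD45, did not. Of 7 fibroblast markers 1 passed it, COL1A1. The highest values of any leukocyte and fibroblast marker in the 12 libraries were 2.07 and 5.03 FPKM. The mitochondrial genome gave 0.569 to 0.775% of reads with PPCL-68 EV and 0.929 to 1.04% with residual medium, and the 10 most abundant genes gave 5.17 to 5.21% against 4.33 to 4.36%.

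Extracellular vesicles are membrane particles that cells release with protein, lipid and RNA cargo and that other cells can take up. The study's title asks about the unfolded protein response (UPR), the program by which a cell answers misfolded protein in the endoplasmic reticulum (ER). It has 3 sensors in the ER membrane: IRE1, encoded by ERN1, which splices the mRNA of the factor XBP1; ATF6, which is cut to release a factor; and PERK, encoded by EIF2AK3, which phosphorylates the initiation factor eIF2-alpha, slows translation and favours that of ATF4. XBP1 and ATF6 act on genes of ER chaperones and of ER-associated degradation. ATF4 acts on genes of amino acid supply and on DDIT3, and it can also be reached through other kinases, which is then called the integrated stress response.

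The ER stress element, a promoter motif through which ATF6 and XBP1 act, is printed first. It reads CCAAT, then 9 bases of any kind, then CCACG, and was searched on both strands in the 250 bases before and 50 bases after the annotated starts of RefSeq genes (GRCh38.p14). At least 1 start held it in 25 of 27305 genes (0.0916%), and 7 of the 20 listed ER chaperone genes that had a promoter entry were among those 25, together with XBP1. Of 19 genes for ER-associated degradation and translocation with an entry, a list that also rose, 0 held it. Only this exact string was searched, so near matches and any other element for ATF6 or XBP1 were not looked for. A gene with several starts had several windows. The matches follow, each read 5′ to 3′ on the strand of its gene, so that a match on the other strand begins with CGTGG.
HSPA5: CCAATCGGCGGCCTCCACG
HSP90B1: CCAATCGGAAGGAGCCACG
HSP90B1 (other strand): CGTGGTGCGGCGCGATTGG
CALR: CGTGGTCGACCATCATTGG
CANX: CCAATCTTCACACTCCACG
PDIA6: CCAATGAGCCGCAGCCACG
CRELD2: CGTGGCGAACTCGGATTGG
ERO1B: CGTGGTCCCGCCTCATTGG
XBP1: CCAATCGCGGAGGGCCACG

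They lay at different distances from the start, 52 to 34 bases before it in XBP1, 66 to 48 in HSPA5 and 225 to 207 in CALR. Of the 7 ER genes, HSPA5, HSP90B1, CANX, PDIA6, CRELD2 and ERO1B (ERO1LB in the deposited tables) rose and CALR fell, as described below. DNAJB9, DNAJC3 and HYOU1, ER chaperone genes with log2 differences of 1.71, 1.21 and 1.18, were not among the 7. The 250 bases before the start of HSPA5, which encodes BiP, the main ER chaperone, are given whole (chr9:125241344-125241593, minus strand, GRCh38.p14), with the element in capitals.
HSPA5: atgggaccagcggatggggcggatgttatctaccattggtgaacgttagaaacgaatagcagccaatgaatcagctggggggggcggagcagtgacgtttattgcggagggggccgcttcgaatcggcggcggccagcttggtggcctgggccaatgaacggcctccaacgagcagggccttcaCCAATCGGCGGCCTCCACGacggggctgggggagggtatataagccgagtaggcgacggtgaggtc

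The C/EBP-ATF element, the motif bound by ATF4 with its C/EBP partners, was searched as TGATGNAAN. It was present in 3.87% of all genes, in 4 of 20 stress factor genes (ATF3, CEBPG, CHAC1 and PPP1R15B) and in 3 of 11 amino acid and one-carbon synthesis genes (ASNS, GOT1 and MTHFD1L). The promoter of ASNS, asparagine synthetase, stands for these genes (chr7:97872409-97872658, minus strand, GRCh38.p14).
ASNS: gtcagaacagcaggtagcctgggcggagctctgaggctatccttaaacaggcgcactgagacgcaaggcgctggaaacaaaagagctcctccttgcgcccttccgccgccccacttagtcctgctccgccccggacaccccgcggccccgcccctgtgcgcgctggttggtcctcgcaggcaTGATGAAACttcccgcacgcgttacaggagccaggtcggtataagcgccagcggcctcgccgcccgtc

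The cell cycle homology region, TTTGAA, through which the DREAM and MuvB complexes act on genes of the late cell cycle, was present in 13 of 24 mitosis genes with an entry (54.2%), in 1 of 34 replication genes and in 16.05% of all genes. Its 6 letters occur often. In ANLN, which encodes the actin-binding protein anillin of the cleavage furrow, a forward and a reverse copy lie side by side (chr7:36389612-36389861, plus strand, GRCh38.p14).
ANLN: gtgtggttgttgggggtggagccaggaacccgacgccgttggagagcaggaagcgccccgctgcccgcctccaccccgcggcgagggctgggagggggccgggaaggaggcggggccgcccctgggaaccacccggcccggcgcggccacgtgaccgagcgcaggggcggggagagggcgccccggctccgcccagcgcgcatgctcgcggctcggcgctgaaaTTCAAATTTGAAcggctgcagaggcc

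The heat shock element, GAA, 2 bases, TTC, 2 bases and GAA, was present in 5 of 22 heat shock genes and 0.557% of all genes. A sterol element of ATCAC followed by CCCAC was found in 1 of 18 cholesterol genes, SREBF2. These matches describe letters in a window and are not binding sites. Motifs and lists were both chosen with such genes in mind, so the shares are a description and were not tested.

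PPCL-68 EV changed most of the genes measured in HPDE, mostly by small amounts. Of 12223 genes tested with limma on log2(FPKM + 1), 8281 (67.7%) passed an adjusted p of 0.05, with 3826 higher (31.3%) and 4455 lower (36.4%) than with residual medium. Of those called, 65.1% differed by less than 0.5 on the log2 scale, and the median absolute difference over all genes was 0.27. A difference of at least 1 was called in 488 genes (3.99%), 224 higher and 264 lower, and of at least 2 in 28 higher and 6 lower. The count of at least 1 depends on the scale: it was 816 with a pseudocount of 0.1 and 875 with voom on recovered reads. The 3 libraries of each group did not overlap in 8499 genes (69.5%). With this background, a list with close to 31.3% of its members higher and 36.4% lower is near what all genes gave. The median log2 difference of all genes was -0.03, and the lists below are described by their counts and medians beside these values. Every log2 difference below was taken after adding 1 to the FPKM, so changes of low genes come out smaller than they were.

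**Figure D1:**
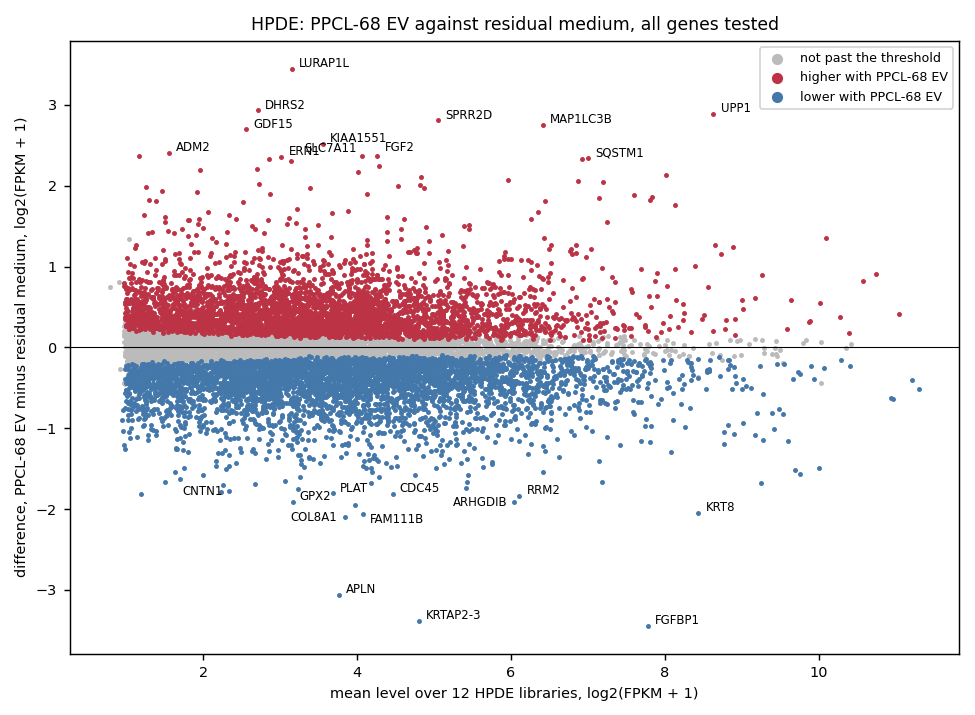
Difference between PPCL-68 EV and residual medium against the mean level over the 12 HPDE libraries, both on the log2(FPKM + 1) scale, for the 12223 genes tested; the 24 genes with the largest changes are named. Red and blue points passed the threshold: most lie within 1 of 0, and LURAP1L and FGFBP1 mark the extremes at 3.45 and -3.44.

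The residual medium was itself not neutral. Relative to fresh medium, 2443 genes (20.0%) differed with it, 1214 higher and 1229 lower. Of these, 56 differed by at least 1, and the median absolute log2 difference over all genes was 0.10. Against untreated cells PPCL-68 EV gave 8100 called genes (66.3%), 3684 higher and 4416 lower. Untreated levels are given below for genes that differed widely between residual medium and fresh medium.

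The largest rise was that of LURAP1L, which encodes a protein with a leucine repeat (ENSG00000153714, hg19 chr9:12775020-12822130, plus strand). It had 1.52, 1.77 and 1.84 FPKM with residual medium and 27.9, 27.5 and 30.3 FPKM with PPCL-68 EV (limma log2 difference 3.45, SE 0.09, adjusted p 1.81e-12). All libraries with PPCL-68 EV were far above those with residual medium, and those with PANC-1 EV lay just under them at 24.6, 24.8 and 26.2 FPKM. UPP1, uridine phosphorylase, which releases ribose from uridine, had 162, 193 and 207 FPKM with residual medium and 1413, 1455 and 1304 FPKM with PPCL-68 EV (limma log2 difference 2.89, SE 0.10, adjusted p 1.1e-11). Its PANC-1 EV libraries, at 714, 771 and 709.6 FPKM, lay between the other groups. MAP1LC3B, the autophagosome protein LC3, and SQSTM1, the autophagy receptor p62, rose from 37.2 to 256 FPKM (log2 difference 2.75) and from 67.0 to 344 FPKM (log2 difference 2.34). GDF15, a secreted stress factor, rose from 1.33 to 14.1 FPKM (log2 difference 2.70), and SLC7A11, the cystine importer, from 5.75 to 33.9 FPKM (log2 difference 2.37). ERN1, the UPR sensor IRE1, rose from 2.74 to 18.3 FPKM (log2 difference 2.36), and the growth factor FGF2 from 8.91 to 49.9 FPKM (log2 difference 2.36). DHRS2, a short-chain dehydrogenase, rose from 2.06 to 22.4 FPKM (log2 difference 2.93), ADM2, the peptide hormone intermedin, from 0.439 to 6.63 FPKM (log2 difference 2.41), and KIAA1551 from 4.68 to 31.3 FPKM (log2 difference 2.51). SPRR2D, a cornified envelope protein of a family of near-identical copies, rose from 17.5, 20.6 and 20.4 FPKM to 159.9, 140.3 and 128 FPKM. Untreated cells had only 2.32, 3.23 and 3.83 FPKM of it, below the residual medium (residual medium minus untreated: log2 difference 2.33).

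FGFBP1, a secreted carrier that releases fibroblast growth factors from the matrix, fell furthest (ENSG00000137440, hg19 chr4:15937192-15940363, minus strand). Its values were 541, 445 and 404 FPKM with residual medium and 37.6, 38.3 and 49.2 FPKM with PPCL-68 EV (limma log2 difference -3.44, SE 0.11, adjusted p 5.96e-12). Every library with PPCL-68 EV was below every other HPDE library, since untreated cells had 905, 838 and 775 FPKM and cells with PANC-1 EV 129.9, 143 and 152 FPKM. FGFBP1 thus fell while FGF2, one of the factors it carries, rose. APLN, the peptide ligand apelin, had 30.01, 27.3 and 27.4 FPKM with residual medium and 2.24, 2.68 and 2.56 FPKM with PPCL-68 EV (log2 difference -3.06). KRTAP2-3, a hair keratin-associated protein whose near-identical copies may share reads, fell from 89.2 to 7.64 FPKM (log2 difference -3.39). Its level in untreated cells was 35.2 FPKM, below that with residual medium. The matrix collagen COL8A1 fell from 17.8 to 3.38 FPKM (log2 difference -2.10), KRT8 from 657 to 158 FPKM (log2 difference -2.05) and ARHGDIB, an inhibitor of GTPase cycling, from 108 to 28.1 FPKM (log2 difference -1.92). GPX2, an epithelial glutathione peroxidase, fell from 14.4 to 3.08 FPKM (log2 difference -1.91), PLAT, tissue plasminogen activator, from 19.9 to 4.98 FPKM (log2 difference -1.81) and CNTN1, a contactin, from 7.01 to 1.34 FPKM (log2 difference -1.78). The S-phase genes RRM2 and CDC45 and the protease gene FAM111B complete the 12 largest falls, with log2 differences of -1.84, -1.81 and -2.07.

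**Figure D2:**
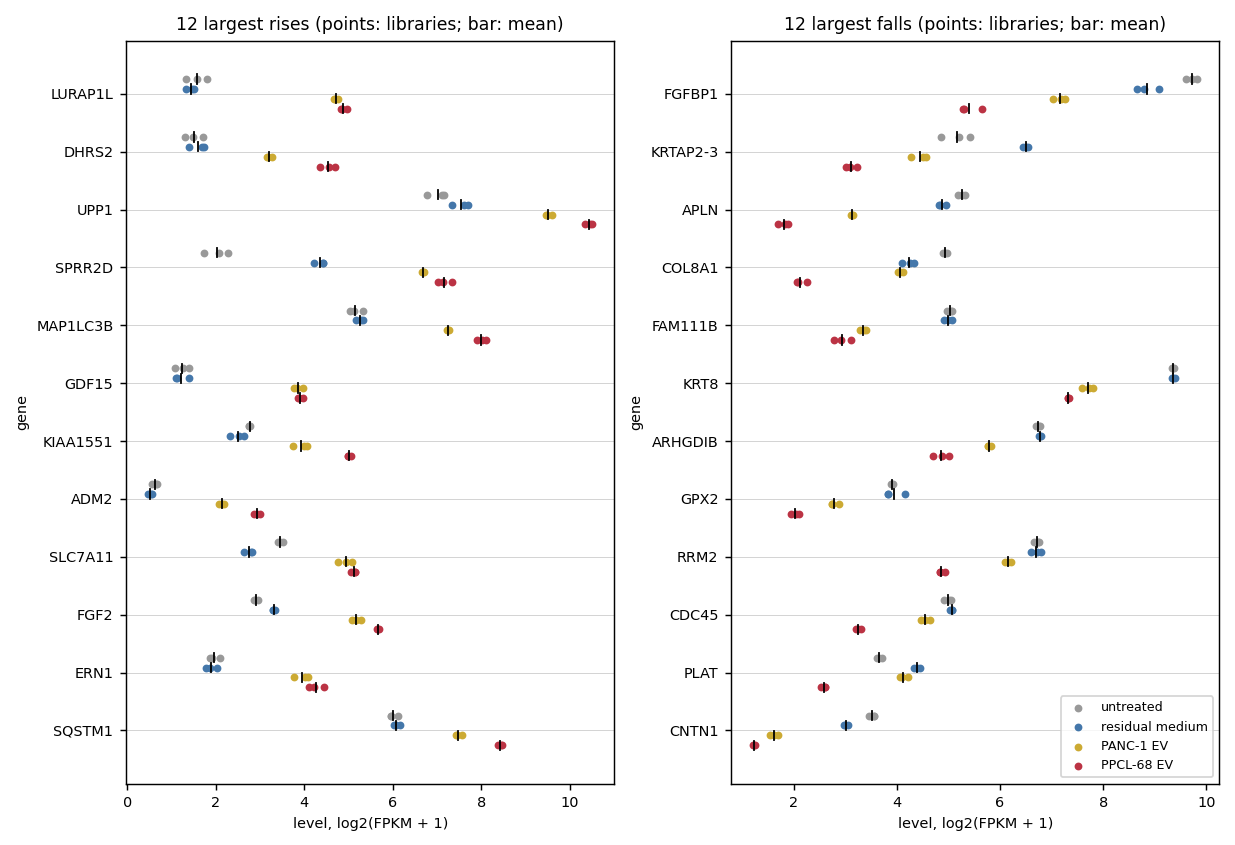
Levels on the log2(FPKM + 1) scale of the 12 genes that rose most (left) and the 12 that fell most (right) with PPCL-68 EV relative to residual medium, 1 point per library in 4 groups, with the group mean as a bar. The groups with PPCL-68 EV and residual medium do not overlap for any of the 24 genes, by the rule that chose them, and the PANC-1 EV libraries of UPP1 and MAP1LC3B lie between them; SPRR2D is higher with residual medium than untreated.

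Genes for folding and quality control in the ER rose with PPCL-68 EV. Of the ER chaperone and oxidative folding list, 17 were higher and 1 lower of 21 tested, with a median log2 difference of 0.43. HSPA5 had 343, 368 and 358 FPKM with residual medium and 903, 837 and 799 FPKM with PPCL-68 EV (limma log2 difference 1.24, SE 0.05, adjusted p 1.13e-10). Its untreated libraries lay with the residual medium at 335, 361 and 342 FPKM, and those with PANC-1 EV were in between at 459.6, 491 and 459 FPKM. DNAJB9 and DNAJC3, co-chaperones of BiP, rose from 4.97 to 18.6 FPKM (log2 difference 1.71) and from 11.3 to 27.4 FPKM (log2 difference 1.21). HYOU1, an ER chaperone that exchanges the nucleotide of BiP, rose from 46.4 to 107 FPKM (log2 difference 1.18), and ERO1LB, an oxidase that re-oxidises protein disulfide isomerase, from 1.34 to 3.16 FPKM (log2 difference 0.83). CALR, the lectin chaperone calreticulin, was the 1 member called lower, from 500.4 to 416 FPKM (log2 difference -0.27), whereas its membrane-bound relative CANX rose from 190.1 to 336 FPKM (log2 difference 0.82). SDF2L1, PDIA4 and TXNDC5 were not called. CALR, HSP90B1 and HSPA5 were all abundant, at 500.4, 453 and 357 FPKM with residual medium, and their log2 differences were -0.27, 0.35 and 1.24.

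Of the list for ER-associated degradation and translocation, 17 were higher and 3 lower of 22 tested, with a median log2 difference of 0.53. HERPUD1, a scaffold of the ER ubiquitin ligase, had 26.6, 29.7 and 27.6 FPKM with residual medium and 78.4, 80.7 and 76.5 FPKM with PPCL-68 EV (limma log2 difference 1.46, SE 0.05, adjusted p 4.91e-12), without overlap. SEL1L, the adaptor of the ligase SYVN1, rose from 10.9 to 24.4 FPKM (log2 difference 1.09), ERLEC1, an ER lectin, from 18.2 to 32.4 FPKM (log2 difference 0.80), and the channel subunit SEC61A1 from 98.0 to 163 FPKM (log2 difference 0.73). EDEM1, which marks glycoproteins for disposal, rose from 9.09 to 15.7 FPKM (log2 difference 0.73). The members called lower were UFD1L, NPLOC4 and SEC62, of which UFD1L and NPLOC4 encode cofactors of the cytosolic segregase p97.

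The ER genes also differed between the vesicle sources. Tested directly, PPCL-68 EV gave higher values than PANC-1 EV in 18 of 21 ER chaperone genes and 20 of 22 degradation and translocation genes, and lower values in 0 and 1; over all genes the shares were 24.9% higher and 25.2% lower. Against the residual medium, which both comparisons share, PANC-1 EV changed 7736 genes (63.3%), and 6 of the ER chaperone genes were higher and 6 lower with it. DNAJC3 was among the genes that differed between the sources, with 11.6, 10.8 and 10.8 FPKM after PANC-1 EV, like the residual medium at 10.6, 11.5 and 11.8 FPKM, and 28.7, 27.4 and 26.3 FPKM after PPCL-68 EV (PPCL-68 EV minus PANC-1 EV: limma log2 difference 1.23, SE 0.05, adjusted p 6.56e-10). For HSPA5 the difference was 0.85, for HYOU1 0.94 and for SEL1L 0.84. The mean of the ER chaperone list, relative to the residual medium libraries, was 0.57, 0.56 and 0.47 on the log2 scale in the libraries with PPCL-68 EV and -0.03, 0.05 and -0.03 in those with PANC-1 EV.

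The stress factors and the amino acid genes of the ATF4 branch rose with PPCL-68 EV as well. Of the list of UPR sensors and stress factors, 16 were higher and 3 lower of 21 tested, with a median log2 difference of 0.86. PPP1R15A, the GADD34 subunit that leads the phosphatase back to eIF2-alpha, rose from 58.5 to 299 FPKM (log2 difference 2.33), and DDIT3, the factor CHOP, from 7.39 to 38.2 FPKM (log2 difference 2.24). SESN2, an inhibitor of mTORC1, rose from 13.1 to 59.6 FPKM (log2 difference 2.10) and CHAC1, which degrades glutathione, from 12.2 to 51.6 FPKM (log2 difference 2.00). ATF4 and XBP1 rose from 118 to 174 FPKM (log2 difference 0.56) and from 56.9 to 147 FPKM (log2 difference 1.35); reads per gene do not show splicing of XBP1 or translation of ATF4. The 3 members called lower were ATF5 and the kinases EIF2AK1 and EIF2AK4, with log2 differences of -0.28, -0.29 and -0.48.

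Among the amino acid transporters, 11 were higher and 0 lower of 12 tested, with a median log2 difference of 0.95. SLC7A11 and SLC38A2, importers of cystine and of small neutral amino acids, rose most, the latter from 107 to 378 FPKM (log2 difference 1.82), followed by SLC1A4 from 4.22 to 14.7 FPKM (log2 difference 1.60), SLC6A9, a glycine carrier, from 3.80 to 12.9 FPKM (log2 difference 1.53) and SLC38A1 from 49.8 to 106 FPKM (log2 difference 1.08). In the amino acid and one-carbon synthesis list, 12 were higher and 2 lower of 15 tested, with a median log2 difference of 0.96. ASNS had 24.1, 32.9 and 31.0 FPKM with residual medium and 129, 123.1 and 122 FPKM with PPCL-68 EV (limma log2 difference 2.07, SE 0.08, adjusted p 6.1e-11). The lowest ASNS value with PPCL-68 EV was above the highest value with residual medium, and the PANC-1 EV libraries were close, at 117, 119.8 and 111 FPKM. CBS and CTH, the enzymes that make cysteine from homocysteine, rose from 13.6 to 42.9 FPKM (log2 difference 1.59) and from 1.93 to 6.12 FPKM (log2 difference 1.30), and the serine pathway enzymes PHGDH and PSAT1 from 26.4 to 64.3 FPKM (log2 difference 1.25) and from 56.9 to 133 FPKM (log2 difference 1.22). SHMT1 and MTHFD1, the cytosolic folate enzymes, fell, with log2 differences of -0.76 and -0.75. Of the cytosolic aminoacyl-tRNA synthetases, which charge tRNAs with amino acids, 11 were higher and 5 lower of 20 tested, with a median log2 difference of 0.49. AARS, SARS and YARS led, with 1.15, 1.12 and 0.92, and MARS followed with 0.87. QARS, HARS and VARS fell, with -0.86, -0.68 and -0.60.

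These lists were also compared directly between the vesicle sources, where 24.9% of all genes were higher and 25.2% lower with PPCL-68 EV. Of 15 synthesis genes, 3 were higher and 4 lower with PPCL-68 EV, near those shares. Among 12 transporters 5 were higher and 2 lower, and among 20 synthetases 4 were higher and 10 lower. ASNS differed by 0.11 between the sources (limma adjusted p 0.32) and TRIB3, a pseudokinase induced by ATF4, by -0.05 (limma adjusted p 0.395). The 95% intervals of these differences were -0.08 to 0.29 for ASNS and -0.15 to 0.05 for TRIB3. The stress factor list was higher in 10 and lower in 3 of 21, and DDIT3, a member, was lower with PPCL-68 EV than with PANC-1 EV (log2 difference -0.43, limma adjusted p 0.00136).

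**Figure D3:**
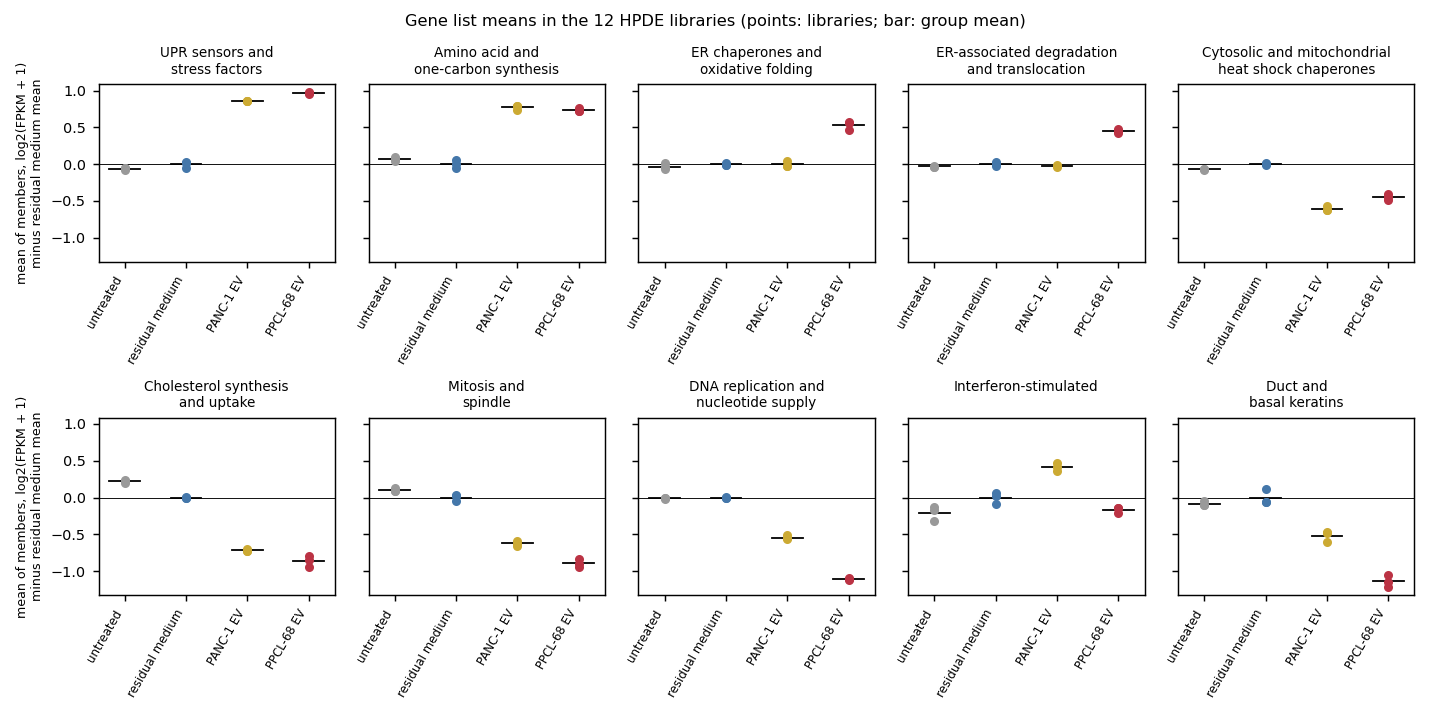
Mean over the tested members of 10 gene lists in each of the 12 HPDE libraries, on the log2(FPKM + 1) scale and relative to the mean of the residual medium libraries; points are libraries and bars group means. The ER chaperone points lie at 0.57, 0.56 and 0.47 with PPCL-68 EV and -0.03, 0.05 and -0.03 with PANC-1 EV, while the stress factor points are at 0.95, 0.97 and 0.97 and 0.85, 0.85 and 0.86; the keratin points reach -1.22, -1.14 and -1.05 with PPCL-68 EV.

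Chaperones outside the ER went the other way. Of the cytosolic and mitochondrial heat shock chaperones, 2 were higher and 20 lower of 24 tested, with a median log2 difference of -0.44. HSP90AA1, the inducible cytosolic HSP90, had 1311, 1505 and 1462 FPKM with residual medium and 517, 465 and 459 FPKM with PPCL-68 EV (limma log2 difference -1.57, SE 0.06, adjusted p 3.85e-11). HSPA8, the constitutive cytosolic HSP70, had 1038, 1167 and 1128 FPKM with residual medium and 545, 480.0 and 478 FPKM with PPCL-68 EV (limma log2 difference -1.15, SE 0.06, adjusted p 6.66e-10). Neither gene's groups overlapped, and HSPA8 was lower still with PANC-1 EV, at 238, 231 and 245 FPKM. HSPE1, DNAJA1 and DNAJB1 fell too, with log2 differences of -0.96, -0.80 and -0.73. The 2 members called higher were HSPA9, the mitochondrial HSP70, from 192 to 298 FPKM (log2 difference 0.64), and the factor HSF1, from 20.3 to 23.5 FPKM (log2 difference 0.21). The near-identical copies HSPA1A and HSPA1B, whose reads may be split, had log2 differences of -0.59 and -0.35. Genes of proteasome subunits also fell. The proteasome breaks down, among others, the proteins that ER-associated degradation removes. Of 29 tested, 2 were higher and 24 lower, with a median log2 difference of -0.49. PSMD1, PSMD3, PSMB1 and PSMB3 fell furthest with PSMD2, from -0.90 for PSMD1 to -0.67 for PSMD2, and PSMD7 and PSMD14 rose. Both lists were higher with residual medium than untreated in part, in 5 heat shock and 14 proteasome members. Against untreated cells 19 and 21 members were lower with PPCL-68 EV. Of all 12223 genes, 1214 were higher with residual medium and 4416 lower with PPCL-68 EV than untreated.

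Genes of sterol and fatty acid synthesis fell. Of the cholesterol synthesis and uptake list, whose genes are driven by the factor SREBP2 when ER cholesterol is low, 1 was higher and 22 lower of 24 tested, with a median log2 difference of -0.81. FDFT1, squalene synthase, had 213, 221 and 212 FPKM with residual medium and 66.2, 66.3 and 69.9 FPKM with PPCL-68 EV (limma log2 difference -1.66, SE 0.05, adjusted p 2.78e-12), with no overlap. The level in its PANC-1 EV libraries was 114, 125 and 112 FPKM. HMGCS1, ACAT2 and DHCR7 also fell, with log2 differences of -1.57, -1.47 and -1.42. TM7SF2, a sterol reductase, was the 1 member called higher, and SREBF2, which encodes SREBP2, had a log2 difference of -0.12 that did not pass (limma adjusted p 0.052). Of the fatty acid synthesis genes, 0 were higher and 10 lower of 10 tested, with a median log2 difference of -0.37. FADS2 and SCD, which place double bonds in fatty acids, fell from 56.7 to 23.5 FPKM (log2 difference -1.24) and from 183 to 85.1 FPKM (log2 difference -1.11), and FASN, ACLY and FADS1 with log2 differences of -0.80, -0.73 and -0.39. With residual medium, 14 of 24 cholesterol and 7 of 10 fatty acid genes were lower than in untreated cells, against 1229 of all 12223 genes. Of 10 genes for cholesterol efflux and the oxysterol receptors LXR, 4 were higher and 1 lower. The exporters ABCG1 and ABCA1 rose from 0.602 to 2.08 FPKM (log2 difference 0.93) and from 0.947 to 2.24 FPKM (log2 difference 0.73), with NPC1 and MYLIP.

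Genes of DNA replication and mitosis fell throughout both lists. All 38 of 38 replication genes tested were lower, with a median log2 difference of -1.11, as were 30 of 30 mitosis genes, with -0.89. RRM2, the subunit of ribonucleotide reductase that limits DNA precursors, had 95.4, 109 and 104.7 FPKM with residual medium and 29.4, 27.4 and 27.6 FPKM with PPCL-68 EV (limma log2 difference -1.84, SE 0.05, adjusted p 2.78e-12). Its PANC-1 EV libraries were in between, at 72.9, 70.5 and 67.8 FPKM. CDC45, a helicase subunit, fell from 32.4 to 8.51 FPKM (log2 difference -1.81), PRIM1, the primase, from 24.5 to 7.79 FPKM (log2 difference -1.54) and UHRF1, which copies DNA methylation, from 49.4 to 16.95 FPKM (log2 difference -1.49). MKI67, the proliferation marker Ki-67, had 26.3, 26.5 and 29.4 FPKM with residual medium and 11.8, 13.1 and 13.6 FPKM with PPCL-68 EV (limma log2 difference -1.04, SE 0.07, adjusted p 5.23e-09). Untreated cells had more MKI67, at 37.7, 36.3 and 37.6 FPKM. AURKB, KIF20A, ANLN, CENPA and TPX2, which act on chromosomes, spindle and cleavage furrow, fell with log2 differences of -1.43, -1.38, -1.38, -1.32 and -1.19. In bulk RNA, fewer cells that express a gene and less of its RNA per cell cannot be told apart. Compared directly with PANC-1 EV, PPCL-68 EV was lower in 35 of 38 replication genes and 24 of 30 mitosis genes, against 25.2% of all genes.

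Regulators of the cell cycle were mixed. Of the G1 cyclins and CDK inhibitors, 5 were higher and 9 lower of 17 tested, with a median log2 difference of -0.22. CDKN1C, which encodes the CDK inhibitor p57, had 1.97, 1.43 and 2.09 FPKM with residual medium and 6.39, 6.89 and 7.14 FPKM with PPCL-68 EV (limma log2 difference 1.47, SE 0.09, adjusted p 5.43e-09), and CDKN1A, which encodes p21, rose from 75.0 to 132 FPKM (log2 difference 0.81). CDKN2C, CCNE2 and CDK2 fell, with -1.12, -0.97 and -0.70. Of 21 p53 targets, 10 were higher and 6 lower. GDF15, PLK2, FDXR, GADD45A and CDKN1A changed most, with 2.70, -1.26, -0.88, 0.83 and 0.81; GDF15, GADD45A and CDKN1A rose and PLK2 and FDXR fell. Of the BCL2 family and death receptors, 3 were higher and 6 lower of 14 tested, with a median log2 difference of -0.02, and BCL2A1, a pro-survival member, fell from 8.72 to 5.22 FPKM (log2 difference -0.64). MCL1, also pro-survival, had 141, 147 and 147 FPKM with residual medium and 147, 145 and 141 FPKM with PPCL-68 EV, and was not called. TNFRSF10B, the TRAIL receptor DR5 that DDIT3 is known to act on, rose from 70.9 to 95.5 FPKM (log2 difference 0.43).

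Autophagy and antioxidant genes rose in part. Of the autophagy list, 10 were higher and 0 lower of 16 tested, with a median log2 difference of 0.34. MAP1LC3B had 34.8, 37.9 and 39.0 FPKM with residual medium and 273, 257 and 238 FPKM with PPCL-68 EV (limma log2 difference 2.75, SE 0.07, adjusted p 7.33e-13). The receptors SQSTM1 and OPTN and the LC3 relative GABARAPL1 rose too, by 2.34, 0.97 and 1.09 on the log2 scale, and WIPI1, which acts on the forming autophagosome, by 0.89. The conjugation genes ATG3, ATG5, ATG7 and ATG16L1 were not called. Of the lysosome genes, 9 were higher and 4 lower of 19 tested, with a median log2 difference of 0.09; NEU1, a sialidase, and SCARB2, a membrane protein, rose most with 1.00 and 0.68. For the targets of the antioxidant factor NRF2, 10 were higher and 4 lower of 15 tested, with a median log2 difference of 0.58 (0.22 with no filter on low genes). FTH1, ferritin heavy chain, had 104, 87.4 and 85.5 FPKM with residual medium and 299.6, 275 and 242 FPKM with PPCL-68 EV (limma log2 difference 1.55, SE 0.09, adjusted p 3e-09). Ferritin genes have processed copies in the genome that may share reads. HMOX1, which breaks down haem, had 4.47, 5.06 and 4.83 FPKM with residual medium, 3.98, 4.47 and 4.84 FPKM with PANC-1 EV and 14.4, 12.4 and 10.5 FPKM with PPCL-68 EV. Its PPCL-68 EV libraries were all above the other 6, and the level differed from PANC-1 EV by 1.30 (SE 0.10, limma adjusted p 1.17e-07). TKT, PGD, TALDO1 and GSR, NRF2 targets of the pentose phosphate pathway and glutathione cycle, fell. Of 4 metallothionein and zinc genes tested, SLC30A1, a zinc exporter, and MT1F rose and MT2A fell, with 0.76, 0.46 and -0.41; these metallothioneins are near-identical copies.

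Cytokine genes were mixed, and most of them also differed between residual medium and untreated cells. Of the chemokines, cytokines and NF-kB feedback genes, 11 were higher and 5 lower of 20 tested, with a median log2 difference of 0.36 (0.21 with no filter on low genes). Relative to untreated cells, 18 of the 20 were higher with residual medium, against 1214 of all 12223 genes. CXCL3, a neutrophil chemokine, had 4.16, 5.67 and 6.60 FPKM untreated, 14.2, 20.8 and 22.9 FPKM with residual medium and 85.8, 80.5 and 70.9 FPKM with PPCL-68 EV (limma log2 difference 2.00, SE 0.15, adjusted p 2.45e-08). Its 3 groups did not overlap. CSF2, IRAK2 and CXCL2 rose by 1.15, 0.96 and 0.96 on the log2 scale. IL1B, interleukin-1 beta, had 102, 104 and 95.2 FPKM untreated, 391, 335 and 323 FPKM with residual medium and 173, 170.3 and 187 FPKM with PPCL-68 EV (limma log2 difference -0.98, SE 0.07, adjusted p 2.62e-08). It was therefore lower with PPCL-68 EV than with residual medium and higher than in untreated cells (log2 difference 0.81). IL8, named CXCL8 in newer annotations, had 175, 226 and 226 FPKM with residual medium and 192, 167 and 161 FPKM with PPCL-68 EV (limma log2 difference -0.26, SE 0.09, adjusted p 0.0244), a small difference that 5 of 12 alternatives did not call. LCN2, an iron-binding antimicrobial protein, had 9.47, 10.6 and 12.04 FPKM untreated, 74.3, 75.7 and 78.3 FPKM with residual medium and 265, 277 and 265 FPKM with PPCL-68 EV (limma log2 difference 1.81, SE 0.06, adjusted p 1.03e-11). Of the 8 antimicrobial and acute-phase genes tested, 3 were higher and 2 lower, and all 8 were higher with residual medium than untreated.

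Interferon-stimulated genes differed between the vesicle sources. Against residual medium 3 of 27 were higher and 10 lower with PPCL-68 EV (median log2 difference 0.00); the falls were near the 36.4% of all genes and the rises below their 31.3%, and ISG15, RSAD2 and IFITM1 were those called higher. With no filter on low genes, 8 members rather than 13 were called. Directly against PANC-1 EV, 21 of 27 were lower and 0 higher (median -0.46), against 25.2% and 24.9% of all genes. BST2, OAS1 and IFIT1, restriction factors against viruses, fell from 573 to 277 FPKM (log2 difference -1.04), from 118 to 58.1 FPKM (log2 difference -1.01) and from 258 to 131 FPKM (log2 difference -0.97), with IFI44 and USP18. IFIT1 had 271, 270.2 and 233 FPKM with residual medium, 251, 289.9 and 264 FPKM with PANC-1 EV and 141, 132 and 121 FPKM with PPCL-68 EV. The PPCL-68 EV libraries were the lowest of the 12. CXCL10, an interferon-induced chemokine, had 21.1, 21.7 and 16.7 FPKM with residual medium, 81.0, 107 and 78.5 FPKM with PANC-1 EV and 18.4, 14.0 and 15.3 FPKM with PPCL-68 EV (PPCL-68 EV minus PANC-1 EV: limma log2 difference -2.40, SE 0.12, adjusted p 3.93e-09). It was high in the PANC-1 EV libraries alone. Of the MHC class I genes, 6 were higher and 3 lower of 12 tested, with a median log2 difference of 0.14; HLA-E, HLA-C and HLA-B rose by 0.42, 0.35 and 0.35 on the log2 scale, while the immunoproteasome subunits PSMB9 and PSMB8 fell, with -0.77 and -0.57. HLA genes are polymorphic and alike, so their reads may be shared.

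Growth factor genes of the EGF family rose. Of this list, 8 were higher and 1 lower of 11 tested, with a median log2 difference of 0.75. EREG, the ligand epiregulin, had 159, 179.7 and 169.7 FPKM with residual medium and 618, 561 and 551 FPKM with PPCL-68 EV (limma log2 difference 1.76, SE 0.05, adjusted p 4.91e-12), without overlap. EPGN rose from 3.40 to 12.1 FPKM (log2 difference 1.57), AREG, amphiregulin, from 171 to 324 FPKM (log2 difference 0.91), and EGFR, their receptor, from 37.4 to 80.8 FPKM (log2 difference 1.09); untreated cells had 58.1 FPKM of EGFR, above the residual medium. ERRFI1, a feedback inhibitor of EGFR, rose from 46.3 to 90.2 FPKM (log2 difference 0.95), and TGFA was the 1 member that fell, from 92.2 to 60.2 FPKM (log2 difference -0.61). Of the ERK feedback and output genes, 8 were higher and 3 lower of 14 tested, with a median log2 difference of 0.31: the phosphatase DUSP5 rose by 1.20 and PHLDA1 by 1.09, while the phosphatases DUSP4 and DUSP6 fell, with -0.66 and -0.31. Of the immediate-early factors, 8 were higher and 3 lower of 14 tested, with a median log2 difference of 0.34, led by KLF6, KLF10 and KLF2 with 0.90, 0.86 and 0.81; FOS and EGR1 fell, with -0.53 and -0.46. YAP-TEAD targets counted 2 higher and 5 lower of 9, and F3, tissue factor, fell from 759 to 358 FPKM (log2 difference -1.08).

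Genes of glycolysis and the hypoxia response fell more often than they rose. Their share of falls was above the 36.4% of all genes and their share of rises below the 31.3%. In that list, 6 were higher and 14 lower of 25 tested, with a median log2 difference of -0.23. NDRG1, a stress and hypoxia gene, had 28.9, 22.5 and 24.7 FPKM with residual medium and 60.3, 69.8 and 73.9 FPKM with PPCL-68 EV (limma log2 difference 1.39, SE 0.08, adjusted p 2.69e-09). ADM, adrenomedullin, rose from 9.59 to 18.0 FPKM (log2 difference 0.85). PKM, LDHA and PGAM1, enzymes of the later steps of glycolysis, fell from 1089.6 to 486 FPKM (log2 difference -1.16), from 705 to 369 FPKM (log2 difference -0.93) and from 298 to 161 FPKM (log2 difference -0.88). GAPDH was not called, with 1345, 1358 and 1364 FPKM and 1437, 1356 and 1273 FPKM. VEGFA, an angiogenic factor that ATF4 and hypoxia both act on, rose from 21.3 to 45.8 FPKM (log2 difference 1.08), and of the 10 angiogenic factors 3 were higher and 5 lower, among them ANGPTL4 and PDGFB with -0.75 and -0.48. Of the metalloproteinases and plasminogen genes, 6 were higher and 4 lower of 12 tested, with a median log2 difference of 0.16. MMP9 had 25.5, 19.5 and 20.3 FPKM with residual medium and 49.7, 68.9 and 70.7 FPKM with PPCL-68 EV (limma log2 difference 1.49, SE 0.14, adjusted p 2.62e-07), and MMP10 rose from 1.18 to 5.53 FPKM (log2 difference 1.58) and MMP13 from 0.684 to 1.94 FPKM (log2 difference 0.81). Relative to untreated cells, 10 of these 12 genes were higher with residual medium, against 1214 of all 12223 genes. For MMP9 that log2 difference was 0.74.

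Keratins, the intermediate filament proteins that mark epithelium, fell together. Of the duct and basal keratins, 11 of 12 were lower and 0 higher, with a median log2 difference of -1.09; KRT16 was not called. KRT19, a duct keratin, had 1139.7, 974 and 1029.7 FPKM with residual medium and 317, 319 and 340.1 FPKM with PPCL-68 EV (limma log2 difference -1.68, SE 0.08, adjusted p 1.89e-10). Its untreated libraries, at 924, 1028 and 914 FPKM, lay near those with residual medium. KRT5 and KRT14, the basal keratin pair, had 1043, 890.2 and 879 FPKM and 401, 285 and 292 FPKM with residual medium, and 308, 313 and 357 FPKM and 119, 127 and 146 FPKM with PPCL-68 EV (log2 differences -1.52 and -1.30). For KRT5, the residual medium had lowered the level from 1804 FPKM in untreated cells. KRT8 and KRT6A fell from 657 to 158 FPKM (log2 difference -2.05) and from 625 to 273 FPKM (log2 difference -1.20). Keratin genes have near-identical relatives and pseudogenes, so how their reads were assigned bears on single values. Compared with PANC-1 EV, 11 of 12 were lower with PPCL-68 EV, against 25.2% of all genes.

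Several duct markers fell, some of which are keratins. Of the 8 duct epithelium markers tested, 6 were lower and 0 higher, and their summed level was 1298 to 1312 FPKM with PPCL-68 EV and 2526 to 2871 FPKM with residual medium. KRT19, KRT7 and KRT18 belong to both lists. SOX9, a duct transcription factor, fell from 30.8 to 14.2 FPKM (log2 difference -1.06) and CLDN4, a tight junction claudin, from 7.95 to 4.11 FPKM (log2 difference -0.81). EPCAM and CDH1 had log2 differences of -0.05 and -0.18, of which that of CDH1 was called. Fibroblast markers summed to 2.60 to 4.36 FPKM with PPCL-68 EV and 3.06 to 8.15 FPKM with residual medium, and leukocyte markers to 0.582 to 1.18 and 1.64 to 2.25 FPKM; the part of such cells in the results was not tested. Of 9 epithelial-mesenchymal regulators and cadherins tested, 3 were higher and 3 lower; ESRP1, an epithelial splicing factor, and SNAI1, a repressor of CDH1, rose by 0.79 and 0.58 on the log2 scale, while ZEB1, ZEB2 and CDH2 were below the filter. Vimentin, VIM, had a log2 difference of -0.19 (limma adjusted p 0.0306) and was not called under 6 of 12 alternatives.

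Basement membrane genes moved by subunit. Of that list, 8 were higher and 3 lower of 15 tested, with a median log2 difference of 0.15. LAMB3 and LAMA3 encode laminin chains, by which epithelial cells hold to the basement membrane. LAMB3 had 776, 723 and 749.5 FPKM with residual medium and 1863, 1958 and 1902 FPKM with PPCL-68 EV (limma log2 difference 1.35, SE 0.05, adjusted p 3.16e-11), and LAMA3 rose from 223 to 378 FPKM (log2 difference 0.76). ITGA2, a collagen-binding integrin, and COL7A1, the anchoring fibril collagen, rose by 1.09 and 0.85 on the log2 scale, and FN1 by 0.51. ITGA6 and ITGB4, the integrin pair of hemidesmosomes, fell, with -0.36 and -0.18. Cornified envelope genes were mixed, with 4 higher and 3 lower of 11; SPRR2D rose and SCEL, sciellin, fell from 4.44 to 0.945 FPKM (log2 difference -1.49).

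**Figure D4:**
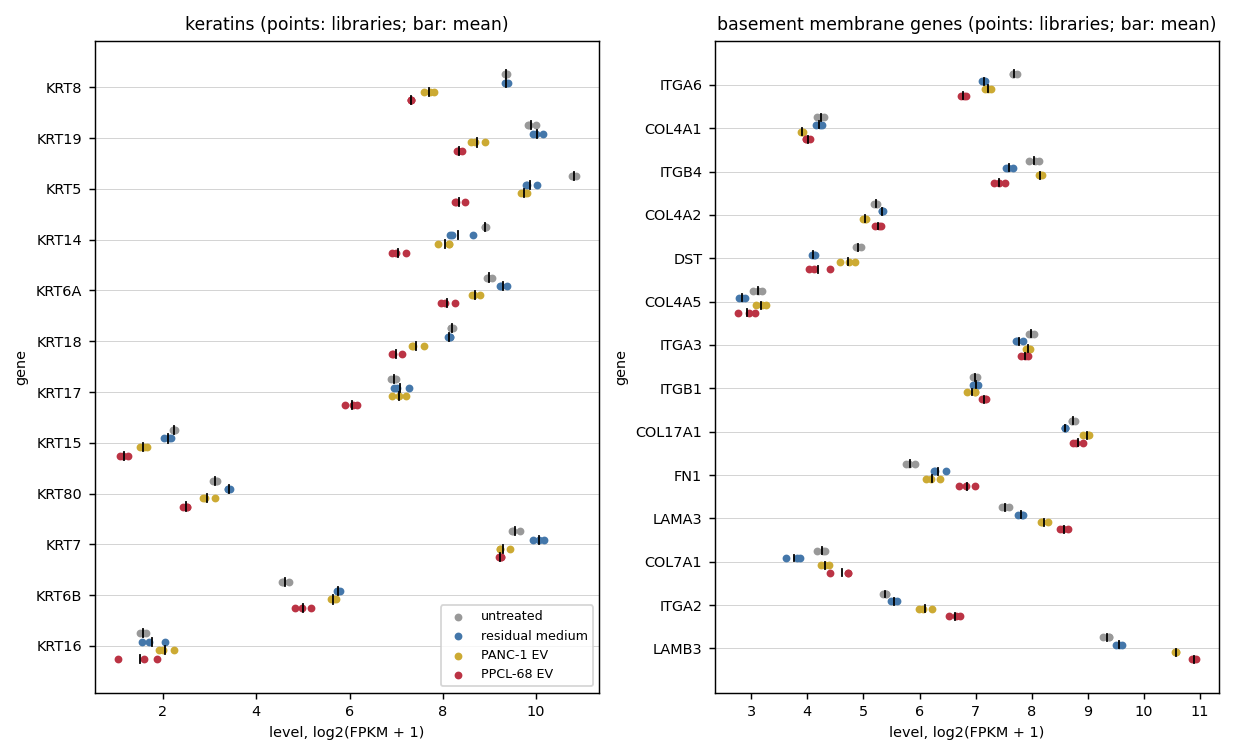
Levels on the log2(FPKM + 1) scale of the 12 tested keratins (left) and 14 of the 15 basement membrane and hemidesmosome genes that were tested (right), 1 point per library in 4 groups, with the group mean as a bar; genes are ordered by the difference between PPCL-68 EV and residual medium. The PPCL-68 EV points of KRT8, KRT19 and KRT5 lie below those of residual medium (mean differences -2.05, -1.68 and -1.52), and those of LAMB3 above (1.35).

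Mitochondrial transcripts and ribosomal proteins fell in part. Of 12 mRNAs of the mitochondrial genome, 7 were lower and 0 higher, with a median log2 difference of -0.50; MT-CO1, a cytochrome oxidase subunit, had 1019, 995 and 1089.7 FPKM with residual medium and 579, 499 and 462 FPKM with PPCL-68 EV (limma log2 difference -1.01, SE 0.15, adjusted p 3.8e-05). Compared directly with PANC-1 EV, PPCL-68 EV was higher in 6 and lower in 0 of the 12, against 24.9% and 25.2% of all genes. Of 75 cytosolic ribosomal proteins, 40 were lower and 7 higher, with a median of -0.18; the largest changes were those of RPS14 and RPL15, with -0.66 and -0.66, and their many pseudogenes may share reads. Of 15 genes for vesicle biogenesis and tetraspanins, 5 were higher and 4 lower, near the shares of all genes. STAM, CD63 and SDCBP rose and RAB27B and VPS4A fell, from 0.58 for STAM to -0.40 for RAB27B.

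**Figure D5:**
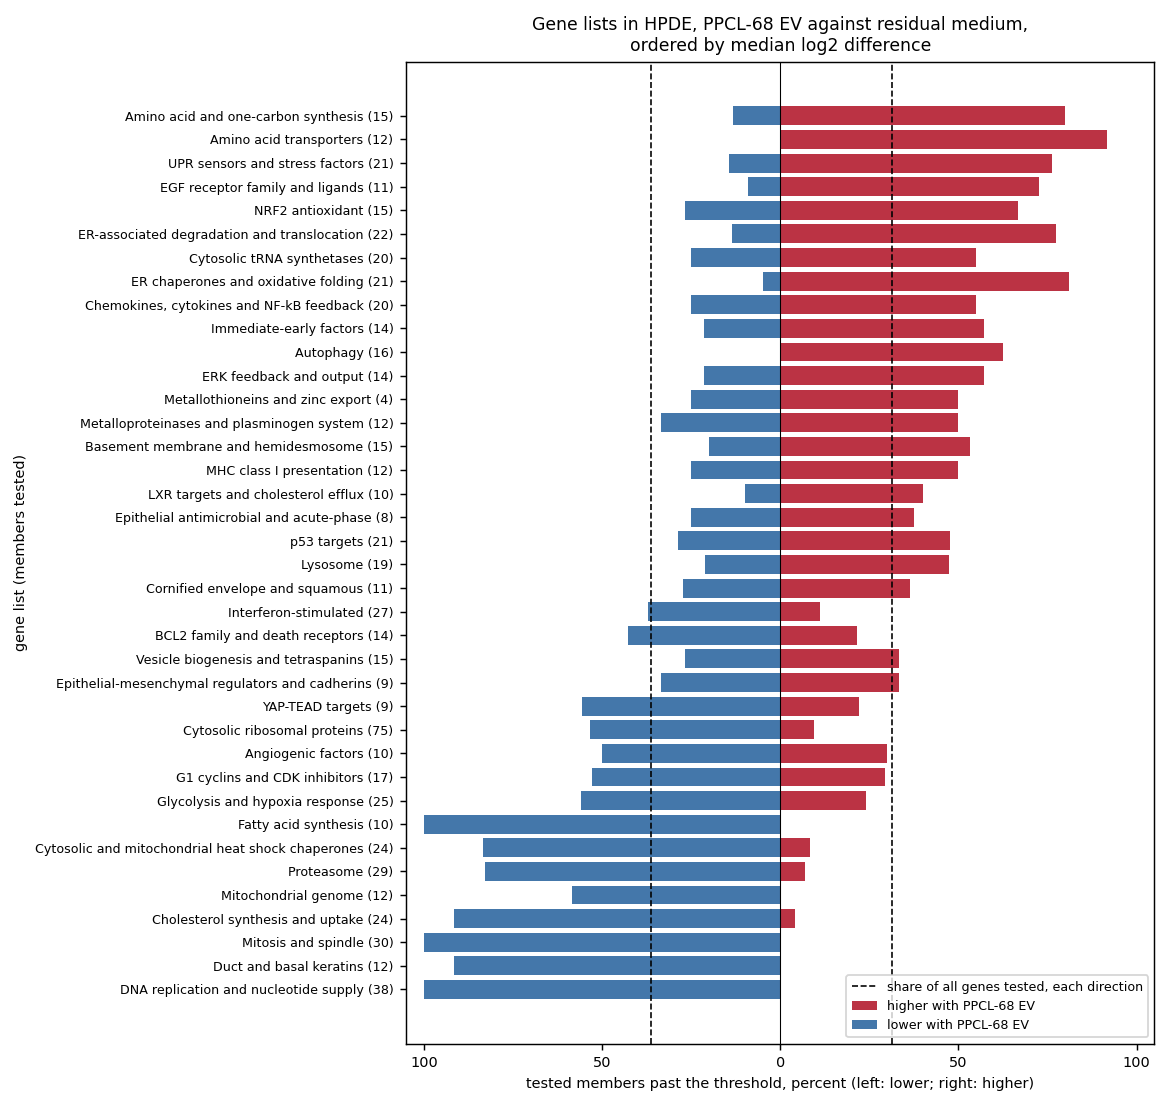
Share of the tested members of 38 gene lists that passed the threshold as higher (red, right) or lower (blue, left) with PPCL-68 EV than with residual medium, ordered by the median log2 difference; dashed lines are the shares of all genes, 31.3% higher and 36.4% lower. Amino acid and ER lists reach past the line on the right and the mitosis, replication and fatty acid lists reach 100% on the left, while the vesicle biogenesis list stays near both lines.

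Between the vesicle sources themselves, 6123 genes (50.1%) differed, 3039 higher and 3084 lower with PPCL-68 EV. A log2 difference of 1 or more was called for 23 higher and 58 lower genes. The gene with the largest direct excess in PPCL-68 EV was AGR2, a disulfide isomerase of the ER that helps fold mucins, with 1.30, 1.02 and 1.26 FPKM with residual medium, 2.51, 2.46 and 2.26 FPKM with PANC-1 EV and 9.76, 8.92 and 8.44 FPKM with PPCL-68 EV (PPCL-68 EV minus PANC-1 EV: limma log2 difference 1.56, SE 0.08, adjusted p 5.78e-09). The PPCL-68 EV libraries were all above the other 9. DHRS2, HMOX1 and the cadherin CDH4 followed among genes with a known product, with 1.34, 1.30 and 1.28. AL096677.1, listed as protein-coding, came second with 1.51, but its libraries ranged widely, with 2.57, 2.01 and 0 FPKM after PANC-1 EV and 6.61, 4.72 and 4.75 FPKM after PPCL-68 EV, and 8 of 12 alternatives did not call it. On the other side, after CXCL10, stood LTB, the cytokine lymphotoxin beta, with 2.83, 3.28 and 4.12 FPKM with residual medium, 13.0, 14.9 and 13.3 FPKM with PANC-1 EV and 1.36, 2.04 and 2.36 FPKM with PPCL-68 EV (PPCL-68 EV minus PANC-1 EV: limma log2 difference -2.35, SE 0.13, adjusted p 1e-08). HAS2, which makes hyaluronan, had 1.59, 1.76 and 1.89 FPKM untreated, 7.21, 7.24 and 7.501 FPKM with residual medium, 11.5, 10.04 and 11.7 FPKM with PANC-1 EV and 2.60, 2.04 and 2.96 FPKM with PPCL-68 EV. With PPCL-68 EV, HAS2 lay closer to its untreated level than in either of the other groups. PPP1R3C, a glycogen-targeting phosphatase subunit, was raised by PANC-1 EV to 24.9, 25.2 and 23.6 FPKM and stood at 6.80, 6.24 and 6.79 FPKM with PPCL-68 EV. COL8A1 fell with PPCL-68 EV to 3.25, 3.15 and 3.74 FPKM and had 15.6, 15.2 and 16.4 FPKM with PANC-1 EV, close to the residual medium at 16.1, 19.2 and 18.2 FPKM.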

How the data were processed

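RNA of 12 HPDE libraries, and of 12 hTERT-HPNE libraries used only for a comparison between the lines, was sequenced with a non-directional kit per the labels' protocols, so antisense and overlapping genes cannot be separated. The authors deposited FPKM values per gene. The submitters' processing notes name CASAVA, STAR, HTSeq, DESeq2 and hg19 without roles. FPKM multiplied by gene length gave whole reads in every library for 100% of values within 0.05, from which depth was read; the 12 HPDE libraries held 29209142 to 42206773 reads.

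Genes with a mean of at least 1 FPKM over the 12 HPDE libraries were kept. limma 3.58.1 (R 4.3.3) was fitted to log2(FPKM + 1) over the 4 HPDE groups, with Benjamini-Hochberg adjustment over the 12223 genes and a threshold of 0.05. PPCL-68 EV and PANC-1 EV were compared in the same fit. The difference between lines was an interaction in a fit of both lines over 10483 genes. The code was tested on simulated data.

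Genes named were the 12 largest rises and falls among protein-coding genes whose groups did not overlap, up to 5 members of each list with the largest change, a few defining members, and the 5 largest differences each way between vesicle sources. Other genes, such as CALR, HSF1, HSPA9, TM7SF2, SREBF2, MCL1, EGR1, GAPDH and the factors named with a motif, were named after their values were seen. The lists and these rules were chosen with earlier results of these data known. Alternatives were a pseudocount of 0.1, no filter, size factors, only the 6 libraries compared, a replicate block, voom on the recovered reads, and each library left out. Promoter letters came from RefSeq (GRCh38.p14). Families of near-identical genes (keratins, metallothioneins, ribosomal proteins, HSPA1A and HSPA1B, ferritin, SPRR2 and KRTAP2 genes) have uncertain values. The values of some list members are not reported here.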

Additional observations from a re-analysis of the deposited data

Results flagged for a closer look

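The effect of PPCL-68 EV relative to residual medium differed between HPDE and hTERT-HPNE in 2410 of 10483 genes by limma's interaction contrast (23.0%). Of these, 1190 had a larger log2 difference in HPDE and 1220 a smaller one. Each line had its own residual medium libraries. Levels in HPNE are not given here. A gene that is low to begin with cannot fall far on this scale, and the part of starting levels was not tested. The 10 genes that follow are those of the 24 largest changes in HPDE that were measured in both lines and passed this test; choosing them for a large change in HPDE favours a larger effect there.

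Among the rises, KIAA1551 differed most, with a log2 difference of 2.51 in HPDE and 0.46 in HPNE (difference between lines 2.05, limma adjusted p 4.98e-08). LURAP1L rose by 3.45 in HPDE and had 1.86 in HPNE (difference 1.59, limma adjusted p 0.000495). The difference was 1.45 for MAP1LC3B, 1.43 for UPP1, 0.78 for ERN1 and 0.72 for SQSTM1, each with the larger rise in HPDE. The difference for FGF2 was 1.23 (limma adjusted p 0.0292), and it was not called when any 1 of 7 of the 12 libraries was left out: it was 0.997 (limma adjusted p 0.0826) without replicate 1 of HPNE with PPCL-68 EV and 1.58 (limma adjusted p 0.00195) without replicate 3 of HPNE with residual medium.

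Among the falls, COL8A1, KRT8 and PLAT fell in HPDE and had log2 differences near 0 in HPNE, the largest of them 0.12 for COL8A1. The differences between lines were -2.23, -2.14 and -1.81. For KRT8 it ranged from -2.53 to -1.88 with 1 library left out. The count of genes with a line difference was 3522 without replicate 3 of HPNE with residual medium. In that library the 10 most abundant genes gave 18.1% of reads, against 14.7 and 14.5% in replicates 1 and 2. With PPCL-68 EV they gave 15.8, 18.1 and 18.3% in HPNE replicates 1, 2 and 3. What these shares did to the line differences was not tested.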

How the results depend on the processing

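Of 210 genes named, 205 had the same direction and call under all 12 alternatives; the exceptions were IL8, MT2A, VIM, MT1E and TWIST1. MT1E was not called (log2 difference -0.02) and turned to 0.00869 with size factors, 0.0523 without replicate 3 of PPCL-68 EV and 0.0505 without replicate 3 of residual medium, over a range of -0.0993 to 0.0523 with 1 library left out. IL8 lost its call with no filter (limma adjusted p 0.106) and without replicates 2 or 3 of either group, MT2A with no filter and without replicate 3 of PPCL-68 EV, and VIM with no filter, with size factors and without those same 4 libraries. TWIST1 was called only without replicate 2 of residual medium (limma adjusted p 0.0315). Of the 10 genes named between vesicle sources, 9 were the same throughout; AL096677.1 lost its call under 8 alternatives, with limma adjusted p from 0.0542 to 0.221.

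Genes changed by at least 1 on the log2 scale numbered 816 with a pseudocount of 0.1 and 875 with voom, against 488; voom called 8331 genes in all, against 8281. Interferon-stimulated members called numbered 8 with no filter, against 13. All other counts of called list members were within 1.5 times of the count reported. List medians moved beyond the spread between replicates in 72 of 468 values, by at most 0.124 except with no filter, where NRF2 targets went from 0.58 to 0.22 and the duct markers from -0.82 to -0.49. The medians of 4 lists turned sign, namely those of BCL2 family, interferon-stimulated, cornified envelope and metallothionein genes. The lysosome median of 0.09 ranged from 0.05 to 0.14. Leaving out 1 library gave 7822 to 7905 changed genes, 460 to 515 of at least 1, 5247 to 5688 between vesicle sources and 1928 to 3522 between lines. Fewer samples enter these fits. Size factors moved the median of all genes by 0.03 and the share of called genes that were higher from 46.2% to 49.7%.

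For PPCL-68 EV and residual medium libraries of the same replicate number, deviations from group means correlated at -0.19, -0.21 and -0.01 across genes. Replicate numbers are not said to mark a shared plate or day, and these values cannot settle it. With a replicate block, 8081 genes changed and 5789 differed between vesicle sources.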

Other observations

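Canonical histone genes rose in part while replication genes fell: of 21 genes with a HIST symbol tested, 10 were higher and 1 lower with PPCL-68 EV than with residual medium, with a median log2 difference of 0.31, against -1.11 for the replication list. Of 16 host genes of small nucleolar RNAs, 8 were higher and 4 lower, with a median of 0.26. Both families were chosen after their values were seen and were not tested as groups. Histone mRNAs mostly lack poly(A) tails and the genes are near-identical copies, so their values are uncertain.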
